A study of Homo sapiens with 10 samples.

Results

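Restriction factors are host proteins that block retroviruses and mobile retroelements inside the cell, and SAMHD1, the gene knocked out here, is one of them. The 9 genes described are host factors beside SAMHD1, taken as a list by name, with no threshold on a measured value: the cytidine deaminases APOBEC3B, APOBEC3C, APOBEC3F and APOBEC3G, the capsid sensor TRIM5, the RNA-binding factors ZC3HAV1 and MOV10, and the membrane proteins SERINC3 and SERINC5. Of these 9, 8 were among the 13920 genes of the count table, and APOBEC3G was not analysed here. APOBEC3 enzymes convert cytosine to uracil in single-stranded viral DNA, and HIV counters them with Vif, which recruits a cellular ubiquitin ligase. TRIM5 binds the incoming capsid, the zinc finger antiviral protein encoded by ZC3HAV1 binds CpG-rich RNA, the MOV10 helicase restrains retrotransposons, and SERINC3 and SERINC5 lower the infectivity of released virions. Many such genes are induced by interferon, and the APOBEC3 genes form a cluster of related copies on chromosome 22.

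RNA sequencing was performed on spheroids of T47D, a human luminal breast cancer cell line, grown without immune cells. WT spheroids (4 libraries, experiments 10, 11, 15 and 16) were compared with SAMHD1 knock-out spheroids of clone A1 (4 libraries, the same experiments) and of clone A2 (2 libraries, experiments 15 and 16 only). Both clones came from T47D cells given a CRISPR-Cas9 plasmid aimed at an exon coding for its HD domain, and no group received a drug or interferon according to the labels. Each knock-out group is 1 clone, so a difference carried by a clone and a difference due to loss of SAMHD1 cannot be told apart within that clone. Library totals ran from 40077369 to 51311482 counts. Levels are given as CPM, counts scaled to library size with TMM factors, and differences as log2 fold changes with standard error (SE) and p-values adjusted over all 13920 genes (edgeR quasi-likelihood test, threshold 0.05). Each library of a group came from its own experiment by the labels, and the study's methods describe biological replicates. Unless another grouping is named, the p-values measure the spread between the experiments of a pair (10 and 11, 15 and 16). They do not measure the spread between pairs or between clones.

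SAMHD1 RNA was lower in all 6 knock-out libraries than in the 4 WT libraries. WT libraries held 53.9, 55.7, 49.8 and 56.4 CPM in experiments 10, 11, 15 and 16, clone A1 held 22.5, 23.0, 6.44 and 6.15 CPM, and clone A2 held 23.6 and 20.2 CPM in experiments 15 and 16. The remaining RNA differed between the experiment pairs of clone A1 (interaction log2 difference -1.81, SE 0.14, adjusted p = 1.20e-06). Of 9 luminal epithelial markers, 8 were listed (KRT19 was the exception), with a summed level of 102.1 to 130.1 CPM. Among them ESR1, the oestrogen receptor, was low, from 0.183 to 1.59 CPM, as were EPCAM, from 0.348 to 1.78 CPM, and ERBB3, from 1.04 to 2.25 CPM. In WT of experiments 15 and 16 against WT of experiments 10 and 11, 2 of the 8 were higher and 2 lower by edgeR (16.4% of all genes in either direction). In experiments 15 and 16 the keratin KRT8 was lower in both clones than in WT (-0.70 and -0.97, edgeR adjusted p = 0.0179 and 0.00104) and FOXA1 higher (0.47 and 0.32, adjusted p = 0.00363 and 0.0217), and the part of these differences in those of the members was not tested. Of 15 markers of leukocytes, fibroblasts, endothelium and basal epithelium, 4 were listed, with a summed level of 9.23 to 15.7 CPM, and PTPRC, PECAM1 and KRT5 were not listed. Most of that sum was the fibroblast marker COL1A1, at 5.91 to 11.4 CPM, a range that overlapped that of KRT8, 3.10 to 9.07 CPM.

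APOBEC3C and APOBEC3F were lower in clone A2 than in WT and than in clone A1 spheroids of the same experiments, while no member passed the test between clone A1 and WT, as 8.24% of all genes did; with the experiment number as a block in the fit, ZC3HAV1 passed there and APOBEC3B passed in clone A2. APOBEC3C and APOBEC3F fell to 0.68 and 0.568 times the WT level in clone A2. The genes of chromosome 22, on which the APOBEC3 cluster lies, were lower in clone A2 as a group, by a median close to the difference of APOBEC3C. The other 5 members, which lie on other chromosomes, kept within 1.16-fold of WT in each clone in experiments 15 and 16, and none of them passed the test without the block. In bulk RNA, fewer cells of a type and less RNA per cell cannot be told apart.

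In WT spheroids the members spanned a wide range of levels per kilobase of exon. The highest were SERINC3 at 18.6 ± 0.536 and MOV10 at 18.0 ± 1.39 CPM per kb (SD, n = 4), which did not differ beyond their spread. APOBEC3C followed at 14.0 ± 0.776 CPM per kb and ZC3HAV1 at 7.07 ± 0.632 CPM per kb. TRIM5 (2.26 ± 0.0575), APOBEC3F (1.94 ± 0.225) and SERINC5 (1.61 ± 0.0744 CPM per kb) formed a lower group; the WT ranges of APOBEC3F, 1.61 to 2.08, and SERINC5, 1.51 to 1.68, overlapped, and APOBEC3F lay below the TRIM5 range of 2.21 to 2.33. APOBEC3B was the lowest, at 0.363 ± 0.146 CPM per kb. Among the APOBEC3 members APOBEC3C thus had the highest level per length.

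**Figure D1:**
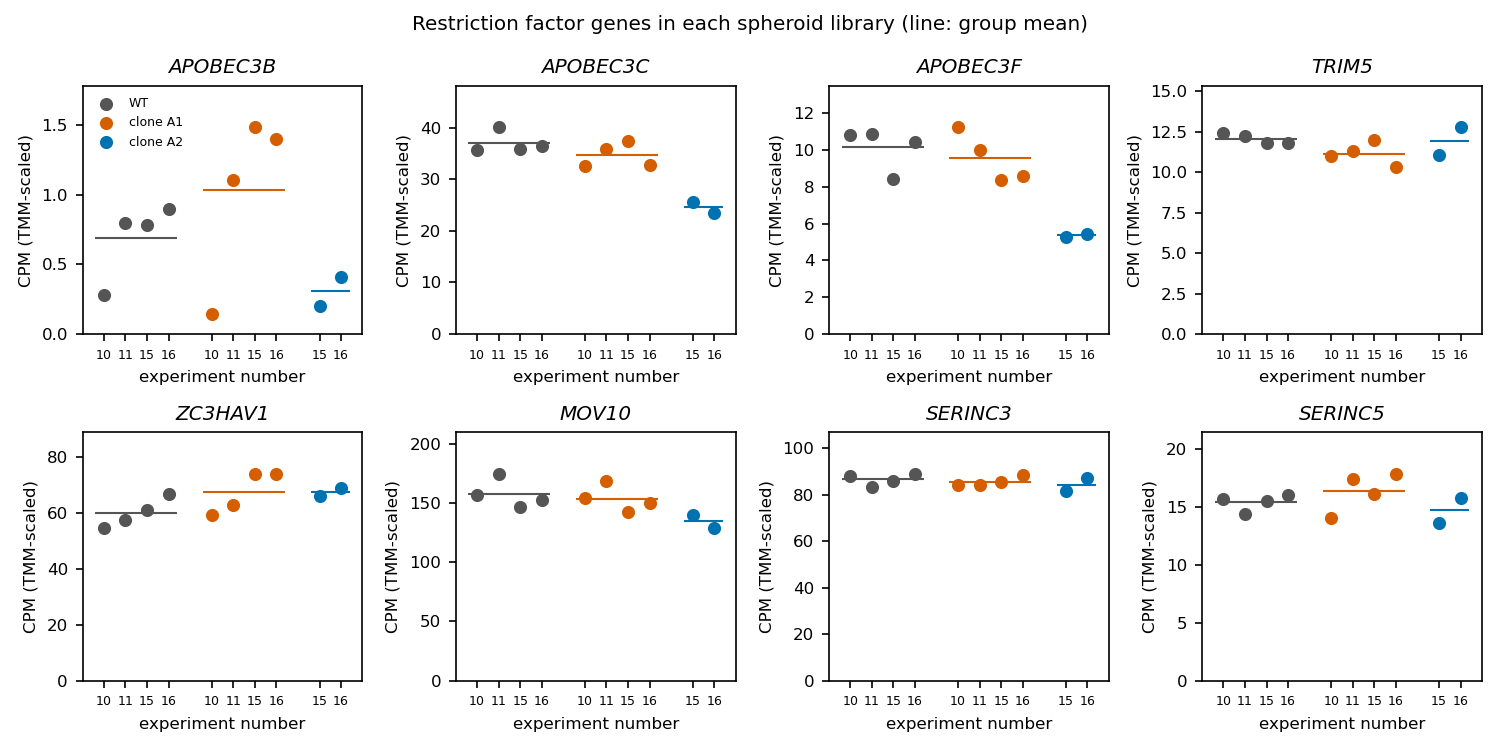
CPM (vertical axis, from 0, with its own scale for each gene) of the 8 measured restriction factor genes in each library, by experiment number (horizontal axis); points are libraries and lines are group means. APOBEC3C at 25.7 and 23.5 CPM and APOBEC3F at 5.27 and 5.45 CPM in clone A2 sit below all other libraries, while SERINC3 stays between 81.5 and 88.9 CPM.

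APOBEC3C (gene ID 27350, chr22:39014257-39020352, plus strand, GRCh38) encodes a deaminase with a single catalytic domain. It measured 35.7, 40.0, 35.9 and 36.4 CPM in WT experiments 10, 11, 15 and 16, and 32.6, 35.9, 37.4 and 32.7 CPM in clone A1. Clone A2 measured 25.7 and 23.5 CPM in experiments 15 and 16. The clone A2 libraries were below the other 8 libraries with no overlap, whereas clone A1 and WT overlapped. Against WT of experiments 15 and 16, APOBEC3C fell in clone A2 by 0.56 on the log2 scale (SE 0.09, adjusted p = 6.01e-04), whereas clone A1 differed by -0.04 (SE 0.09, 95% interval -0.24 to 0.15, adjusted p = 0.845). The direct comparison of clone A2 with clone A1 gave a log2 difference of -0.51 (SE 0.09, adjusted p = 0.00242), which missed the threshold without clone A1 of experiment 15 (adjusted p = 0.0726) or without clone A2 of experiment 16 (adjusted p = 0.0591).

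APOBEC3F (gene ID 200316, chr22:39040864-39055972, plus strand), a double-domain deaminase that edits HIV DNA in cells lacking Vif, was the most reduced member to pass the test. WT libraries measured 10.8, 10.9, 8.39 and 10.4 CPM in experiments 10, 11, 15 and 16, and clone A1 libraries 11.2, 10.01, 8.34 and 8.56 CPM. Clone A2 measured 5.27 and 5.45 CPM. Every library of clone A2 was below every other library, and WT experiment 15 lay near the clone A1 values of experiments 15 and 16. The log2 difference of clone A2 from WT was -0.82 (SE 0.13, adjusted p = 3.67e-04) and from clone A1 -0.66 (SE 0.13, adjusted p = 0.00465), the latter missing the threshold without clone A2 of experiment 15 (adjusted p = 0.0544). Clone A1 differed from WT by -0.16 in experiments 15 and 16 (SE 0.12, adjusted p = 0.489) and by -0.03 in experiments 10 and 11 (SE 0.12, adjusted p = 0.928).

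APOBEC3B (gene ID 9582, chr22:38982347-38992779, plus strand), a nuclear deaminase linked to cytosine mutations in tumours, was scarce and variable. It had 13, 39, 31 and 46 reads in WT experiments 10, 11, 15 and 16, and 7, 51, 65 and 61 reads in clone A1. Clone A2 had 9 and 21 reads. These correspond to 0.282 to 0.897 CPM in WT, 0.145 to 1.48 CPM in clone A1 and 0.202 and 0.41 CPM in clone A2. Counting error alone gives the 7 reads a 95% exact Poisson interval of 2.81 to 14.4 and the 65 reads one of 50.2 to 82.8. Within experiments 15 and 16, clone A1 was the highest and clone A2 the lowest, with no overlap, but experiment 10 was low in both WT and clone A1. In experiments 15 and 16, 24.3% of all genes had clone A2 below clone A1, and the share with WT between them was not counted.

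The log2 difference of APOBEC3B in clone A2 was -1.43 from WT (SE 0.72, adjusted p = 0.215) and -2.203 from clone A1 (SE 0.68, adjusted p = 0.115). Whether they passed depended on the libraries and terms of the fit. With only the libraries compared, the adjusted p became 0.0139 and 8.74e-05, with the experiment number as a block 0.00901 and 1.97e-04, and without clone A1 of experiment 10 it became 0.0487 and 0.00735. Without clone A1 of experiment 11, the difference between the clones also passed (adjusted p = 0.00777). The size varied with the clone A2 library left out: without that of experiment 16 the log2 differences were -2.045 (adjusted p = 0.32) and -2.822 (adjusted p = 0.275), and without that of experiment 15 they were -1.034 (adjusted p = 0.56) and -1.808 (adjusted p = 0.53). In clone A1 the difference from WT was 0.77 (SE 0.59, adjusted p = 0.5).

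Read sharing among the related copies was small for the members. Of all 150-base windows of its annotated transcripts, APOBEC3B shared 6.08% with another gene, APOBEC3F shared 2.77% and APOBEC3C shared none. APOBEC3D, which is no member, shared 78.2% of its windows, mainly with a readthrough transcript and APOBEC3F, so its 11 to 43 reads per library are uncertain.

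Of the 8 members, 2 were lower in clone A2 than in WT, against 9.07% of all genes tested that were lower (16.4% in either direction). Between the clones, 2 of 8 were lower, against 3.07% of all genes. Comparing clone A1 with WT in experiments 15 and 16, edgeR called 0 of 8 members (8.24% of all genes), 1 at an unadjusted p under 0.05 (22.5% of all genes), and DESeq2 and limma-trend also called 0. In experiments 10 and 11 edgeR called 0 of 8 (0.194% of all genes), with 0 at an unadjusted p under 0.05 (10.6% of all genes) and 0 by DESeq2 and limma-trend. The change of the clone A1 difference between the experiment pairs likewise gave 0 of 8 calls (2.5% of all genes), 0 unadjusted (15.5% of all genes) and 0 by the other tools. With the experiment number as a block, 1 of 8 members passed for clone A1 in experiments 15 and 16 (17.3% of all genes), 3 for clone A2 (26.4%), 3 between the clones (8.71%), and 0 for clone A1 in experiments 10 and 11 (2.74%) and for the change between pairs (8.96%).

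The average of the clones' differences from WT gave 2 of 8 members lower, against 8.63% of all genes. APOBEC3C differed by -0.30 (SE 0.08, adjusted p = 0.0159) and APOBEC3F by -0.49 (SE 0.11, adjusted p = 0.00498). When a block for experiment was added, ZC3HAV1 also passed (0.14, adjusted p = 0.0443), making 3 of 8 (25.4% of all genes in either direction). The averages of APOBEC3C and APOBEC3F combine a clone near WT with a clone below it. For ZC3HAV1 the value was above WT in both clones, at 0.21 in clone A1 and 0.07 in clone A2. The study's methods count the libraries of both clones as replicates of a single knock-out group. When the 4 knock-out libraries of experiments 15 and 16 were treated in that way, so that the clone difference counted as spread, 0 of 8 members were called by edgeR (9.99% of all genes) and 0 had an unadjusted p under 0.05 (24.9% of all genes), with adjusted p = 0.446 for APOBEC3C and 0.248 for APOBEC3F. Separation of libraries gave the same split: 0 of 8 members separated the 4 knock-out from the 2 WT libraries of experiments 15 and 16, where 35.4% of all genes did, and 0 of 8 separated all 6 from all 4, where 1.51% did. The calls also depended on single WT libraries, since without WT of experiment 16 neither gene passed (adjusted p = 0.122 and 0.178). APOBEC3C missed the threshold as well without WT of experiment 15 (adjusted p = 0.107), clone A1 of experiment 16 (0.0605) or clone A2 of experiment 16 (0.0642).

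**Figure D2:**
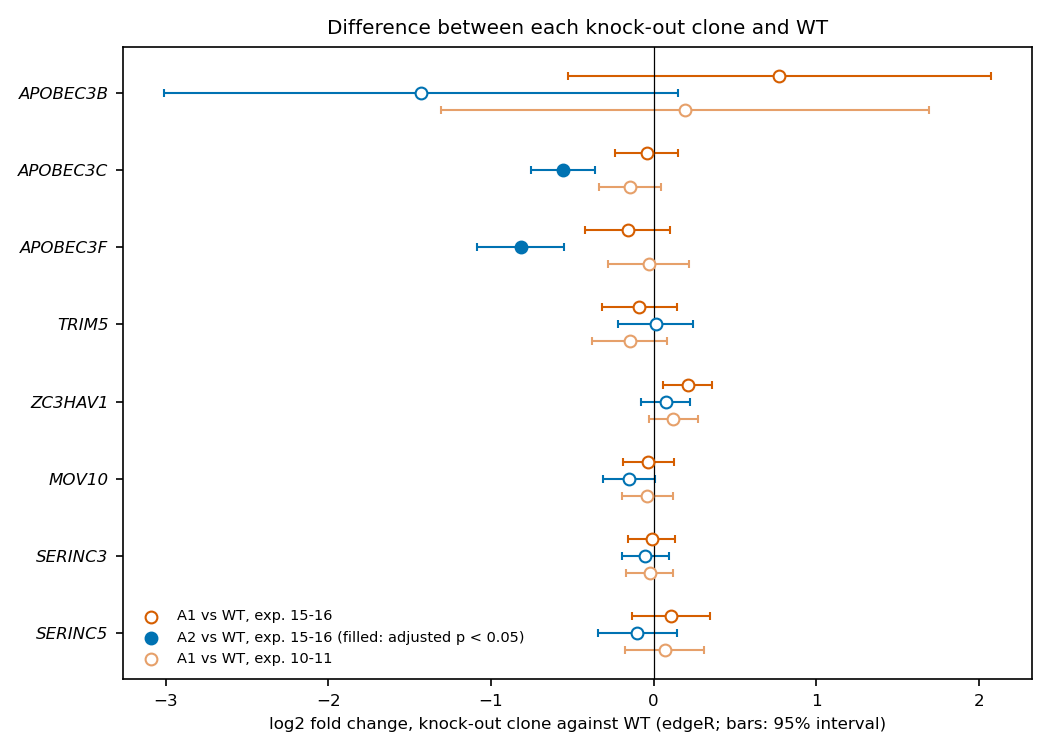
Log2 fold change of each member (horizontal axis, clone against WT of the same experiments) with its 95% interval from the edgeR fit; filled points passed the adjusted p threshold and open points did not. The filled points are APOBEC3C at -0.56 and APOBEC3F at -0.82 in clone A2, and the widest intervals belong to APOBEC3B.

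Chromosome 22 as a whole was lower in clone A2. Leaving out the APOBEC3 genes (the measured members and APOBEC3D, whose reads are uncertain) here and in the counts around the cluster, 314 genes of the chromosome were measured, of which 303 had a negative log2 difference from WT and 249 (79.3%) were lower by the test, with a median of -0.48 (quartiles -0.64 and -0.37). The median over all genes was 0.01, and the medians of the other chromosomes lay between -0.15 (chromosome 19) and 0.15 (chromosome 4). In clone A1 the chromosome 22 median was 0.01 in experiments 15 and 16 and -0.06 in experiments 10 and 11. Between the clones it was -0.50, with 239 genes lower (76.1%). By library, relative to the WT mean, the chromosome 22 median was -0.48 and -0.55 in the clone A2 libraries and between -0.05 and 0.09 in the other 8. DNA copy number was not measured, and the chromosome as a cause of the members' differences was not tested. Member values after removal of regional medians are given below.

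**Figure D3:**
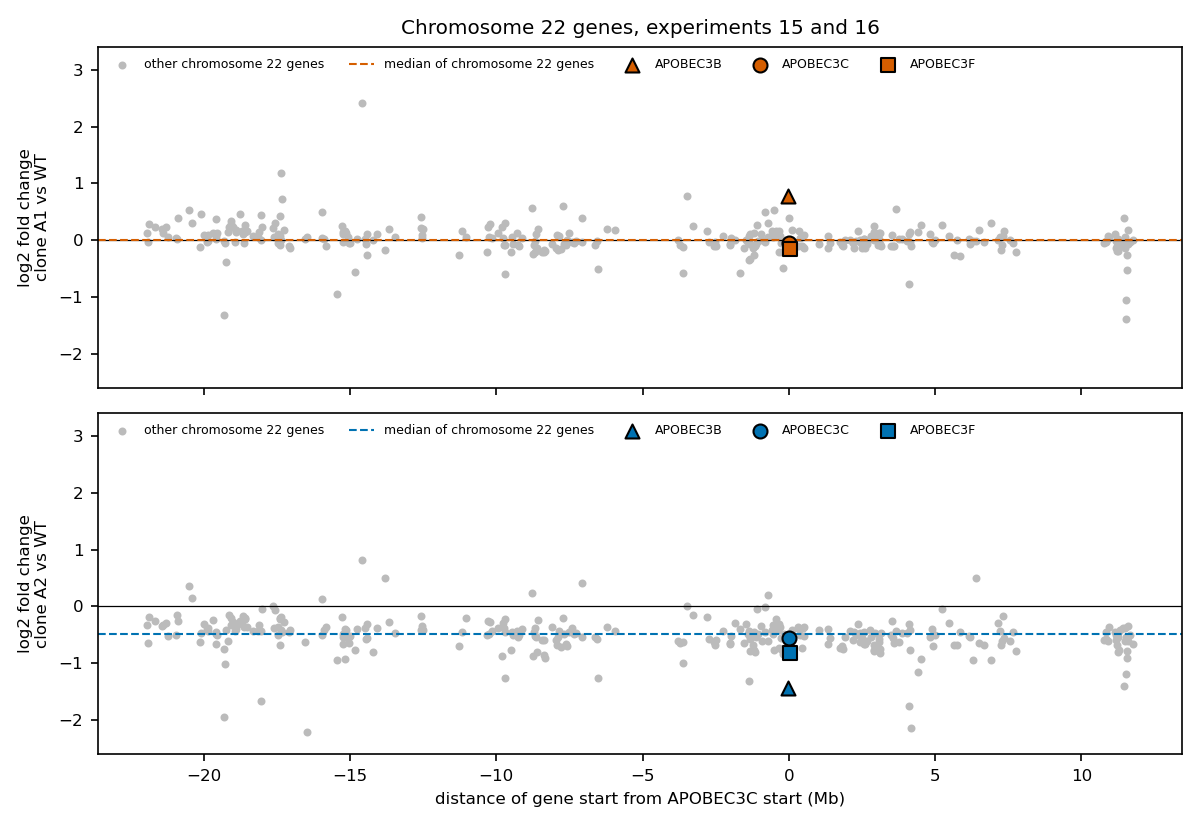
Log2 fold change (vertical axis) of chromosome 22 genes against the distance of their start from that of APOBEC3C in Mb (horizontal axis), for clone A1 (top) and clone A2 (bottom) against WT in experiments 15 and 16; 1 gene that has no position on the assembled chromosome is not drawn. The dashed median lies at 0.01 in clone A1 and -0.48 in clone A2, where the shift spans the measured length of the chromosome.

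The immediate neighbours of the cluster followed the same pattern. Of 28 genes outside the APOBEC3 family starting within 1 Mb of the members, 27 were negative and 22 (78.6%) were lower in clone A2 than in WT, with a median of -0.42. CBX6, a Polycomb protein gene next to the cluster, differed by -0.49 (adjusted p = 1.24e-04), and RPL3, a ribosomal protein gene, by -0.36 (adjusted p = 8.34e-04). CSNK1E, encoding casein kinase 1 epsilon, differed by -0.61 (adjusted p = 6.34e-05). These examples were chosen after their values were seen. In clone A1, 1 of the 28 neighbours passed the test.

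Set against this background, APOBEC3C was an ordinary gene of its chromosome in clone A2 and APOBEC3F was toward the low end. Within 5 Mb of APOBEC3C, 111 genes had a median log2 difference of -0.54, and APOBEC3C differed from that median by -0.02, APOBEC3F by -0.28 and APOBEC3B by -0.89. Of the 314 other chromosome 22 genes, 112 (35.7%) were lower than APOBEC3C, 25 (7.96%) were lower than APOBEC3F and 5 (1.59%) were lower than APOBEC3B. When the regional median was removed from each library and limma-trend was applied, the clone A2 difference from WT was -0.01 for APOBEC3C (adjusted p = 0.964) and -0.25 for APOBEC3F (adjusted p = 0.237), and 0 of 8 members were called (10% of all genes), with 2 at an unadjusted p under 0.05 (24.6% of all genes).

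**Figure D4:**
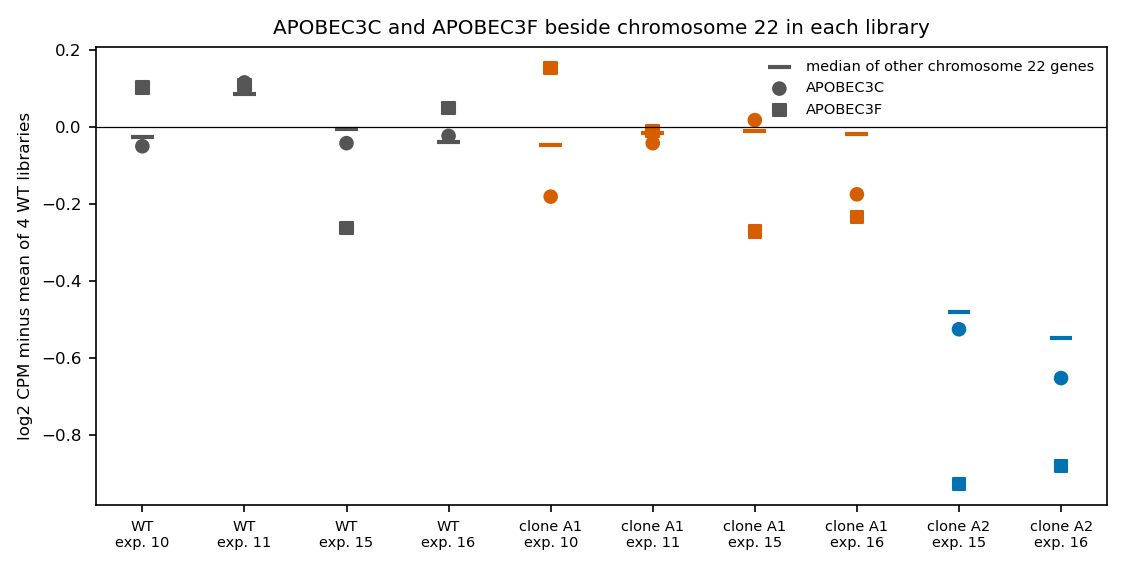
Log2 CPM of APOBEC3C, APOBEC3F and the median of the other chromosome 22 genes in each library (horizontal axis), as the difference from the mean of the 4 WT libraries (vertical axis); colours mark WT, clone A1 and clone A2. In clone A2 the chromosome median is -0.48 and -0.55, APOBEC3C is -0.53 and -0.65, and APOBEC3F is -0.93 and -0.88.

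The genes whose levels ran most like the APOBEC3 members over the 10 libraries lay largely on the same chromosome. For APOBEC3C they were RRP7A (Pearson r = 0.987), CENPM (0.985) and TST (0.98), all on chromosome 22. For APOBEC3F they were RTCB (0.979), GNAZ (0.971) and ADSL (0.971), also all on chromosome 22. For APOBEC3B they were PXMP2 (0.906, chromosome 12), HSCB (0.901, chromosome 22) and ACOT1 (0.883, chromosome 14). The correlations are a description over 10 libraries that share 5 group-by-experiment-pair sets, chosen from 12885 genes compared (12886 for APOBEC3B).

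TRIM5 (gene ID 85363, chr11:5588635-5685074, minus strand), the capsid-binding ubiquitin ligase, showed little variation. It measured 12.4, 12.2, 11.8 and 11.8 CPM in WT experiments 10, 11, 15 and 16, 10.97, 11.3, 11.97 and 10.3 CPM in clone A1, and 11.1 and 12.8 CPM in clone A2. All groups overlapped. The log2 difference from WT was -0.09 in clone A1 (95% interval -0.32 to 0.14, adjusted p = 0.707) and 0.01 in clone A2 (95% interval -0.22 to 0.24, adjusted p = 0.959). Of 5 other TRIM genes of its locus, 4 were listed and 0 passed the edgeR test in either clone in experiments 15 and 16 (0 at an unadjusted p under 0.05, 0 by DESeq2 and limma-trend). Of all genes 8.24% passed the edgeR test in clone A1 and 16.4% in clone A2. In clone A1 of experiments 10 and 11, 0 passed by any of these tools (0.194% of all genes by edgeR) and 2 had an unadjusted p under 0.05 (10.6% of all genes).

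ZC3HAV1 (gene ID 56829, chr7:139043515-139109720, minus strand), the CpG-binding ZAP protein, was the member nearest to the threshold in clone A1. It measured 54.3, 57.3, 61.0 and 66.7 CPM in WT experiments 10, 11, 15 and 16, and 59.0, 62.5, 73.8 and 73.8 CPM in clone A1. Clone A2 measured 65.8 and 68.7 CPM. The clone A1 libraries of experiments 15 and 16 were above the other 8 libraries, while clone A2 overlapped WT. The share of all genes with that separation was not counted. The difference of clone A1 from WT in those experiments was 0.21 (SE 0.07, 95% interval 0.06 to 0.36, adjusted p = 0.0861), passing with the experiment number as a block (adjusted p = 0.0146) or without WT of experiment 10 (adjusted p = 0.0353) or 11 (0.0351), and that of clone A2 was 0.07 (SE 0.07, adjusted p = 0.545). WT itself differed by 0.20 between the experiment pairs (SE 0.07, adjusted p = 0.0762, and 0.0161 with the block). The 53 other genes within 5 Mb had median log2 differences of 0.19 in clone A1, 0.23 in clone A2 and 0.22 for WT between experiment pairs, with 12, 18 and 16 of them higher by the test and 0 lower. Over all genes 3.95% were higher in clone A1 and 7.33% in clone A2, and 16.4% differed in either direction between the WT pairs. With the regional median removed, the clone A1 difference of ZC3HAV1 was 0.00 (limma-trend adjusted p = 0.984). Of 7 ZAP partner genes, 1 was lower in clone A2 (9.07% of all genes), EXOSC5, an RNA exosome subunit, at -0.54, and 0 were called in clone A1 by edgeR (8.24% of all genes in either direction; 2 at an unadjusted p under 0.05, 1 by DESeq2 and 0 by limma-trend). With the block EXOSC5 also passed in clone A1, at -0.30 (adjusted p = 0.00405).

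MOV10 (gene ID 4343, chr1:112674439-112700739, plus strand), the helicase that restrains retrotransposons, was among the most abundant members. It measured 157, 175, 147 and 152 CPM in WT experiments 10, 11, 15 and 16, and 155, 168, 142 and 150.1 CPM in clone A1. Clone A2 measured 140.1 and 129 CPM. Clone A2 was below the other 8 libraries, and all 6 libraries of experiments 15 and 16 were below the 4 of experiments 10 and 11, a separation shown in that direction by 14.3% of all genes. The log2 difference of clone A2 from WT was -0.15 (SE 0.08, 95% interval -0.31 to 0.01, adjusted p = 0.188) and that of clone A1 was -0.03 (SE 0.08, adjusted p = 0.856). In all, 3 of 8 members (APOBEC3C, APOBEC3F and MOV10) had clone A2 below the other 8 libraries, against 9.12% of all genes. Of 5 partner genes, UPF1, the helicase of nonsense-mediated decay, was lower in clone A1 at -0.23 (1 of 5, against 4.29% of all genes). In clone A2, 0 passed by edgeR (16.4% of all genes in either direction), with 1 at an unadjusted p under 0.05 and 0 by DESeq2 and limma-trend. UPF1 passed in clone A2 with the block (-0.16, adjusted p = 0.0413), and it was also lower in WT of experiments 15 and 16 than in WT of experiments 10 and 11 (-0.20, adjusted p = 0.0468).

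SERINC3 (gene ID 10955, chr20:44496221-44522070, minus strand) had the narrowest range of the members. It measured 88.0, 83.3, 86.0 and 88.9 CPM in WT experiments 10, 11, 15 and 16, 83.9, 84.3, 85.3 and 88.3 CPM in clone A1, and 81.5 and 87.2 CPM in clone A2. The groups overlapped throughout. The log2 difference from WT was -0.01 in clone A1 (95% interval -0.16 to 0.13, adjusted p = 0.953) and -0.05 in clone A2 (95% interval -0.20 to 0.09, adjusted p = 0.666).

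SERINC5 (gene ID 256987, chr5:80111225-80256048, minus strand), the more potent virion inhibitor of the pair and the target of HIV Nef, overlapped between WT and both clones. It measured 15.6, 14.4, 15.5 and 16 CPM in WT experiments 10, 11, 15 and 16, and 14.0, 17.4, 16.1 and 17.8 CPM in clone A1. Clone A2 measured 13.6 and 15.8 CPM. The log2 difference was 0.11 in clone A1 (95% interval -0.14 to 0.35, adjusted p = 0.649) and -0.10 in clone A2 (95% interval -0.34 to 0.14, adjusted p = 0.615). Of 3 other SERINC genes, 2 were listed and 0 were called in either clone in experiments 15 and 16 by edgeR, DESeq2 or limma-trend. By edgeR 8.24% of all genes were called in clone A1 and 16.4% in clone A2. SERINC1 had an unadjusted p under 0.05 in clone A1 (0.17, adjusted p = 0.0495 with the block), as did 22.5% of all genes.

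Between clone A2 and clone A1, 6 of 8 members were lower in both clone A2 libraries than in both clone A1 libraries (TRIM5 and SERINC3 were the others), a pattern shown by 24.3% of all genes. Between WT of experiments 15 and 16 and WT of experiments 10 and 11, edgeR called 0 of 8 members (16.4% of all genes), 1 at an unadjusted p under 0.05 (31.6% of all genes), and DESeq2 and limma-trend called 0. With the block 1 passed, ZC3HAV1 (29% of all genes).

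Other interferon-induced restriction genes moved in both directions. Of 24, 18 were listed: 3 rose and 2 fell in clone A1 (3.95% and 4.29% of all genes), and 1 rose and 2 fell in clone A2 (7.33% and 9.07%), in experiments 15 and 16, to which the block added LGALS3BP in clone A2 (-0.19, adjusted p = 0.0176). The median log2 difference was -0.04 in clone A1 and -0.15 in clone A2, beside 0.00 and 0.01 over all genes. OAS3, which makes the activator of RNase L, measured 6.90, 8.77, 7.71 and 8.36 CPM in WT experiments 10, 11, 15 and 16, and 4.04, 5.85, 14.96 and 16.2 CPM in clone A1. Clone A2 measured 15.3 and 15.6 CPM. OAS3 was thus higher in both clones in experiments 15 and 16 (0.95 in clone A1, adjusted p = 7.16e-04, and 0.94 in clone A2, adjusted p = 3.39e-04), and the clone A1 difference changed between the experiment pairs by 1.62 (adjusted p = 5.21e-04).

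BST2, the tether of budding virions, measured 3.10, 3.00, 2.42 and 2.03 CPM in WT, 1.95, 1.89, 1.302 and 1.06 CPM in clone A1, and 0.785 and 1.152 CPM in clone A2. All knock-out libraries lay below all WT libraries, a separation shown in either direction by 1.51% of all genes. The difference of BST2 in experiments 15 and 16 was -0.91 in clone A1 (adjusted p = 0.0289) and -1.18 in clone A2 (adjusted p = 0.00334). In clone A1 of experiments 10 and 11 it was -0.67, and between the WT pairs BST2 differed by -0.46. Neither of these passed the edgeR test. GBP2, a guanylate-binding protein, fell in clone A2 from 1.71 and 0.877 CPM in WT experiments 15 and 16 to 0.314 and 0.371 CPM (log2 difference -1.88, adjusted p = 0.00193), and it was also lower than in clone A1 (-1.86, adjusted p = 0.00475). IFITM1, an entry inhibitor, fell in clone A1 by 0.46 (adjusted p = 0.0293), whereas SLFN5 rose by 0.43 (adjusted p = 0.0212) and SLFN11, which limits viral protein synthesis, rose by 0.29 (adjusted p = 0.0266). In experiments 10 and 11 the clone A1 differences were 0.015 for IFITM1 (adjusted p = 0.968), -0.15 for SLFN5 (adjusted p = 0.614) and 0.08 for SLFN11 (adjusted p = 0.696), and the change between the pairs did not pass the edgeR test (adjusted p = 0.164, 0.0594 and 0.36), although DESeq2 called it for SLFN5 (adjusted p = 0.0355). IFITM1 was also lower in WT of experiments 15 and 16 than in WT of experiments 10 and 11 (-0.38, adjusted p = 0.0391).

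**Figure D5:**
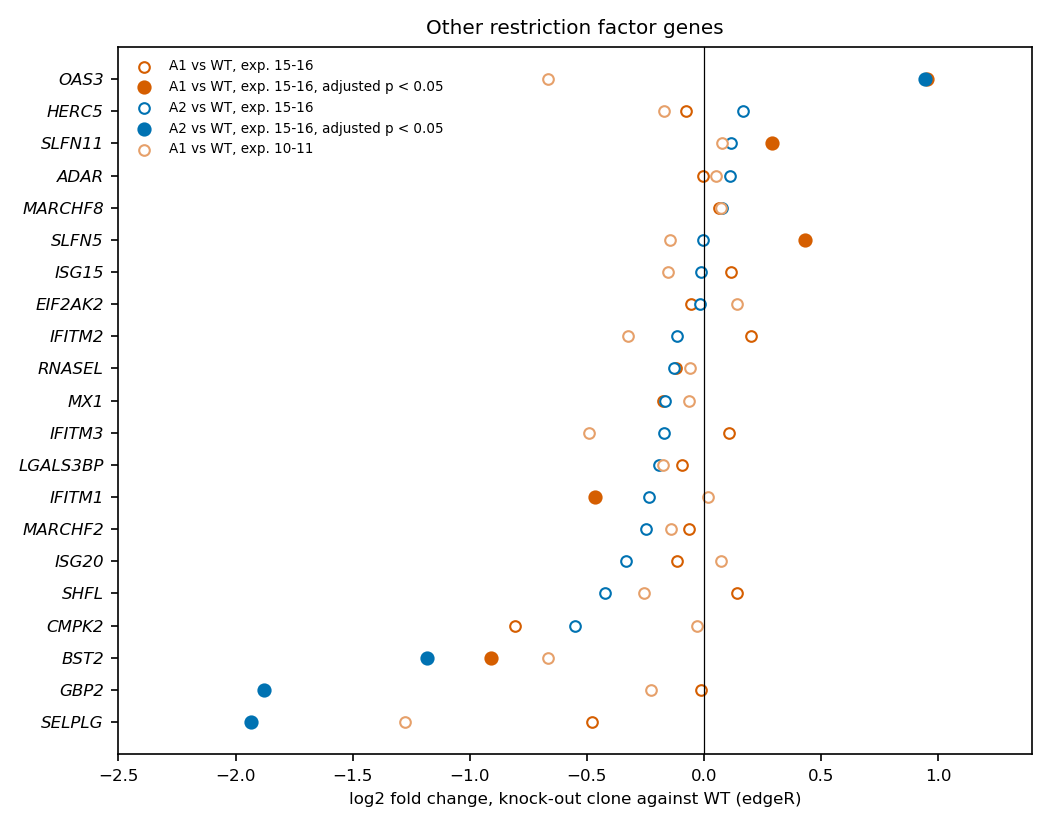
Log2 fold change against WT (horizontal axis) of 18 interferon-induced and 3 other restriction genes in clone A1 (experiments 15 and 16, and 10 and 11) and clone A2 (experiments 15 and 16); filled points passed the adjusted p threshold. OAS3 lies near 0.95 in both clones in experiments 15 and 16, and BST2 is at -0.91 and -1.18.

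The promoters of these genes were read for a motif of interferon-stimulated response elements, GAAANNGAAA on either strand, in the 250 bases before and 50 after the gene start (RefSeq, GRCh38.p14). It occurred in 4.38% of 27305 genes with an entry, in 12 of 17 (70.6%) interferon-induced restriction genes with an entry, and in 1 of the 5 members with an entry, TRIM5. APOBEC3B, APOBEC3C, APOBEC3F and APOBEC3G were the members with no entry in the table. The stretches of TRIM5, OAS3, BST2 and IFITM1 show the motif in capitals (for TRIM5 in the opposite orientation). BST2 has 2 overlapping matches. OAS3 has a second match beyond the stretch, and IFITM1 has a second match starting just after its stretch. In experiments 15 and 16 TRIM5 was a member that did not pass the test. By the test OAS3 was higher in both clones, BST2 lower in both and IFITM1 lower in clone A1. A match is a match of letters, not a bound site.
TRIM5, chr11:5685075-5685126, minus strand: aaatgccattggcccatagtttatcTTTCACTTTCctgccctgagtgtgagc
OAS3, chr12:112938306-112938365, plus strand: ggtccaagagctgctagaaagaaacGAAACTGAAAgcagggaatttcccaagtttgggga
BST2, chr19:17405726-17405785, minus strand: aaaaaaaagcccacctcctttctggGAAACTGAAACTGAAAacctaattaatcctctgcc
IFITM1, chr11:313975-314033, plus strand: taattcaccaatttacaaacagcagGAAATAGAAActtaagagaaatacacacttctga

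In 8 other lists around the restriction pathway, 3 of 49 listed genes (6.12%) passed the test in clone A1 and 8 of 49 (16.3%) in clone A2 against WT in experiments 15 and 16, beside 8.24% and 16.4% of all genes. With the block the counts were 6 and 11 of 49, the added genes being ELOB, APEX1 and RELB in clone A1 and TDG, APEX1 and IFNAR2 in clone A2, beside 17.3% and 26.4% of all genes. Of 7 other AID/APOBEC genes only APOBEC3D was listed, at 0.40 in clone A1 and -0.65 in clone A2, without passing any test. Of 7 subunits and partners of the ligase that Vif hijacks, ELOB rose in clone A2 by 0.29 (not called by limma-trend) and was also higher in WT of experiments 15 and 16 than of experiments 10 and 11 (0.30, adjusted p = 0.0399), and 0 were called in clone A1 by edgeR, DESeq2 or limma-trend (1 at an unadjusted p under 0.05). The clone A1 difference of ELOB was -0.35 in experiments 10 and 11 (adjusted p = 0.226) and 0.22 in experiments 15 and 16, a change that passed the test (0.57, SE 0.14, adjusted p = 0.032). Of 6 uracil repair genes, which process the uracil that APOBEC3 enzymes leave in DNA, UNG fell in clone A2 by 0.20, and 0 were called in clone A1 by edgeR (1 unadjusted, 1 by DESeq2, 0 by limma-trend). Of 7 retroelement silencing genes, TRIM28 fell in both clones, by 0.37 in clone A1 and 0.24 in clone A2, and MORC2, itself on chromosome 22, fell in clone A2 by 0.36.

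Of 9 interferon signal genes, IRF3 fell in both clones, by 0.32 in clone A1 and 0.33 in clone A2, and it was also lower in WT of experiments 15 and 16 than of experiments 10 and 11 (-0.29, adjusted p = 0.0403). Of 4 NF-kB subunit genes, NFKB2 fell in clone A1 by 0.41 and differed by -0.29 between the WT pairs (adjusted p = 0.0216), and 0 were called in clone A2 by edgeR, DESeq2 or limma-trend (1 at an unadjusted p under 0.05). Of 12 DREAM and proliferation genes, 2 fell in clone A2, among them LIN9 by 0.39, and 0 were called in clone A1 by edgeR, DESeq2 or limma-trend (1 unadjusted). Of 3 other restriction genes, SELPLG fell in clone A2 (log2 difference -1.93 on 4 to 30 reads a library, not called by DESeq2), and 0 were called in clone A1 of experiments 15 and 16 by any of the tools (0 unadjusted).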

How the data were processed

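Total RNA of T47D spheroids was sequenced from stranded mRNA libraries (4 WT, 4 clone A1, 2 clone A2), and the groups and experiment numbers were read from the labels. The authors deposited whole-number read counts per NCBI gene, aligned to GRCh38 with HISAT2 and, per the submitters' processing notes, handled with StringTie; the counting program is not given in the sources used here. The table lists 13920 genes with a lowest count of 1, so a gene with no entry was not analysed here, and 13885 matched a symbol in RefSeq (GRCh38.p14), leaving 35 by number. No library pair was a repeat deposit (chi-square per degree of freedom of at least 6.74 over 45 pairs).

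The deposited counts were scaled by TMM and tested with edgeR 4.0.16 in R 4.3.3 (robust quasi-likelihood) in 1 fit of 5 groups of 2 libraries (clone or WT within experiments 10 and 11 or 15 and 16; 5 residual degrees of freedom), with Benjamini-Hochberg adjustment over all genes and a threshold of 0.05. Contrasts were taken within an experiment pair, except for WT between pairs and the interaction. CPM values are TMM-scaled, and log2 CPM for single libraries used a prior count of 2. Alternatives were DESeq2 1.42.0, limma-trend 3.58.1 with and without removal of regional medians (5 Mb either side), RLE scaling, a mean count of at least 10, only the libraries compared, the experiment number as a block, each library left out, and other groupings of the knock-out libraries. WT and clones share experiment numbers in the labels, and deviations from the means of the 5 groups correlated at 0.084 to 0.151 between libraries of the same experiment, so the fit with the block is given beside each member, and each gene of a list (cell type markers aside) compared with WT in experiments 15 and 16, whose call it changed. Exon lengths came from GENCODE. The scripts were tested on simulated data.

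The members were listed by name and the rule used no measured value, but they and the gene lists were chosen with earlier results of these data known. Named genes were all members, SAMHD1, up to 4 genes per list that passed a test in at least 1 comparison by size of change (or the most abundant where none did; the most abundant are not printed for every list), the genes around the APOBEC3 cluster as a group, and the 3 genes most like each of the 3 most variable members among genes of at least 1 mean CPM. Other genes of the lists and markers named beside a count (SLFN5, SLFN11, those that the block added, and the cell type markers with values) were chosen after their values were seen. Lists covered other AID/APOBEC genes, the TRIM5 locus, ZAP and MOV10 partners, other SERINC genes, interferon-induced and other restriction factors, the Vif ligase, uracil repair, retroelement silencing, interferon signal, NF-kB, DREAM and proliferation, and cell type markers. The counts carry no molecular identifiers, so the intervals on counts cover counting error only.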

Additional observations from a re-analysis of the deposited data

Results flagged for a closer look

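The 4 WT libraries of APOBEC3C were 35.7, 40.0, 35.9 and 36.4 CPM, and the gap of the highest (experiment 11) to its neighbour made up 0.845 of their range, above Dixon's 95% critical value for 4 values. By chance about 1 group in 20 passes that value. Leaving that library out gave a log2 difference of -0.56 between clone A2 and WT, to which it does not belong by experiment.

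The difference between the clones was itself tested for the members: clone A2 was below clone A1 in experiments 15 and 16 by a log2 difference of -0.51 for APOBEC3C (edgeR adjusted p = 0.00242) and -0.66 for APOBEC3F (edgeR adjusted p = 0.00465), both libraries of clone A2 lying below both of clone A1. The chromosome 22 median for the same comparison was -0.50.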

How the results depend on the processing

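Over 32 member log2 differences in 4 comparisons and 560 alternative values, 510 kept direction and side of the threshold, 17 lost the call, 11 gained it and 22 changed sign, of which 1 concerned a called value. Groups hold 2 libraries each, APOBEC3B has 7 to 65 reads, and clone A2 was sequenced in 1 pair of experiments only.

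With regional medians removed, genes called in experiments 15 and 16 were 692 for clone A1, 1398 for clone A2, 359 between the clones and 1234 for the average of the clones, and members called were 0 in the last 3, where the reported counts were 2. Values that changed sign there were TRIM5 -0.022, ZC3HAV1 -0.139 (clone A2), APOBEC3C 0.039 (between the clones), ZC3HAV1 -0.068 and SERINC5 -0.017 (average). Joining the clones in experiments 15 and 16 gave 1390 genes and 0 members, with APOBEC3B at 0.04. All 6 knock-out against 4 WT libraries gave 0 genes by edgeR (1172 at an unadjusted p under 0.05, with DESeq2 not run on this grouping) and 0 members, with APOBEC3B at 0.19. SAMHD1 itself was thus not called in that fit, so its 0 members tell nothing about the members. With only the libraries compared, 1852 (clone A1, experiments 15 and 16), 917 (between clones), 12 (clone A1, experiments 10 and 11) and 1208 (WT pairs) genes were called, and DESeq2 called 63 for clone A1 in experiments 10 and 11 and 533 for the interaction. The cause of these changes was not tested.

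When the experiment number entered as replicate block, 2411, 3673, 1213, 3534, 382, 1247 and 4039 genes were called (clone A1, clone A2, between clones, average, clone A1 in experiments 10 and 11, interaction, WT pairs), and 1 member was called for clone A1 (ZC3HAV1, adjusted p = 0.0146) and 1 for the WT pairs (ZC3HAV1, 0.0161); APOBEC3B also passed for clone A2 (adjusted p = 0.00901) and between clones, and ZC3HAV1 for the average (0.0443). The block changed no other call among the members in these comparisons.

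Leaving out 1 library at a time gave 343 to 2000 (clone A1), 1020 to 3199 (clone A2), 268 to 959 (between clones), 658 to 3086 (average), 7 to 1361 (clone A1, experiments 10 and 11), 88 to 1123 (interaction) and 820 to 3658 (WT pairs) genes; where 1 library of a group was left, it was assumed to vary like the others. Members called ranged from 0 to 1, 2 to 3, 1 to 3 and 0 to 2 in the first 4, and 0 to 1 for the WT pairs. Uncalled members that changed sign ranged, in clone A1, from -0.145 to 0.051 (APOBEC3C), -0.302 to 0.009 (APOBEC3F), -0.201 to 0.017 (TRIM5), -0.073 to 0.004 (MOV10) and -0.036 to 0.014 (SERINC3), in clone A2 from -0.095 to 0.11 (TRIM5), between the clones from -0.012 to 0.21 (TRIM5) and -0.093 to 0.007 (SERINC3), and for the average from -0.096 to 0.015 (TRIM5) and -0.049 to 0.053 (SERINC5).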
